A study of Ovis aries with 16 samples.

Results

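Genes for ion channels of potassium, calcium, chloride and mixed cations were followed in peripheral lung of 3-day-old lambs. The group held 60 of the 9155 genes with a gene symbol on the arrays, chosen by the start of the symbol (KCN, CACN, CLCN, CLCA, TRPC, TRPM, TRPV, RYR or ITPR followed by a letter or number). It comprised 26 potassium channel genes, 18 calcium channel genes, 6 chloride channel genes, 8 TRP cation channel genes and 2 genes of channel-associated proteins. No RYR gene was among them, and KCNA5, KCNK3, KCNN3, CACNA1C, TRPM7, RYR2 and CLCA2, known from lung and vessels, had no probe set under these symbols and were not analysed here.

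The arrays came from 16 lambs. In 8 shunt lambs a graft sewn in before birth joined the ascending aorta to the pulmonary artery, which models a heart defect that floods the lung with blood, and the 8 control lambs had a sham operation in utero. All were delivered spontaneously and sampled under anesthesia at 3 days, and the labels give no sex, breed, dam or hemodynamic value of any lamb. Sheep RNA was hybridized to probe sets that carry bovine names, so a difference in sequence can lower a signal without a difference in RNA.

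Ion channels set the membrane voltage and let calcium into the cell. In vascular smooth muscle, open potassium channels hyperpolarize the cell and relax the vessel, whereas calcium entering through voltage-gated and TRP channels, or released from stores through inositol trisphosphate receptors, drives contraction. Chloride channels act on membrane voltage, on fluid secretion by epithelium and on the acidification of endosomes and lysosomes. In endothelium, calcium-activated potassium channels and TRP channels take part in the response to flow.

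No channel gene differed between shunt and control lambs past the threshold of the fit over all genes. With limma and a Benjamini-Hochberg adjusted p under 0.05, 0 of 60 channel genes were called, where 0.0874% of all genes were (0.0655% higher and 0.0218% lower in shunt lambs). At an unadjusted p under 0.05, 3 channel genes had a positive and 7 a negative difference, shunt minus control, or 5% and 11.7% of the 60, beside 6.63% and 7.92% of all genes. ITPR1, KCNMB4 and KCNE2 were the 3 on the higher side, and KCNH1, KCNH3, KCNQ3, KCNJ15, CACNA1E, CACNB1 and CLCN2 the 7 on the lower side. Their adjusted p ran from 0.245 to 0.315. Values of the 8 shunt and 8 control lambs overlapped for all 60 channel genes, and were separate for 0.153% of all genes.

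**Figure D1:**
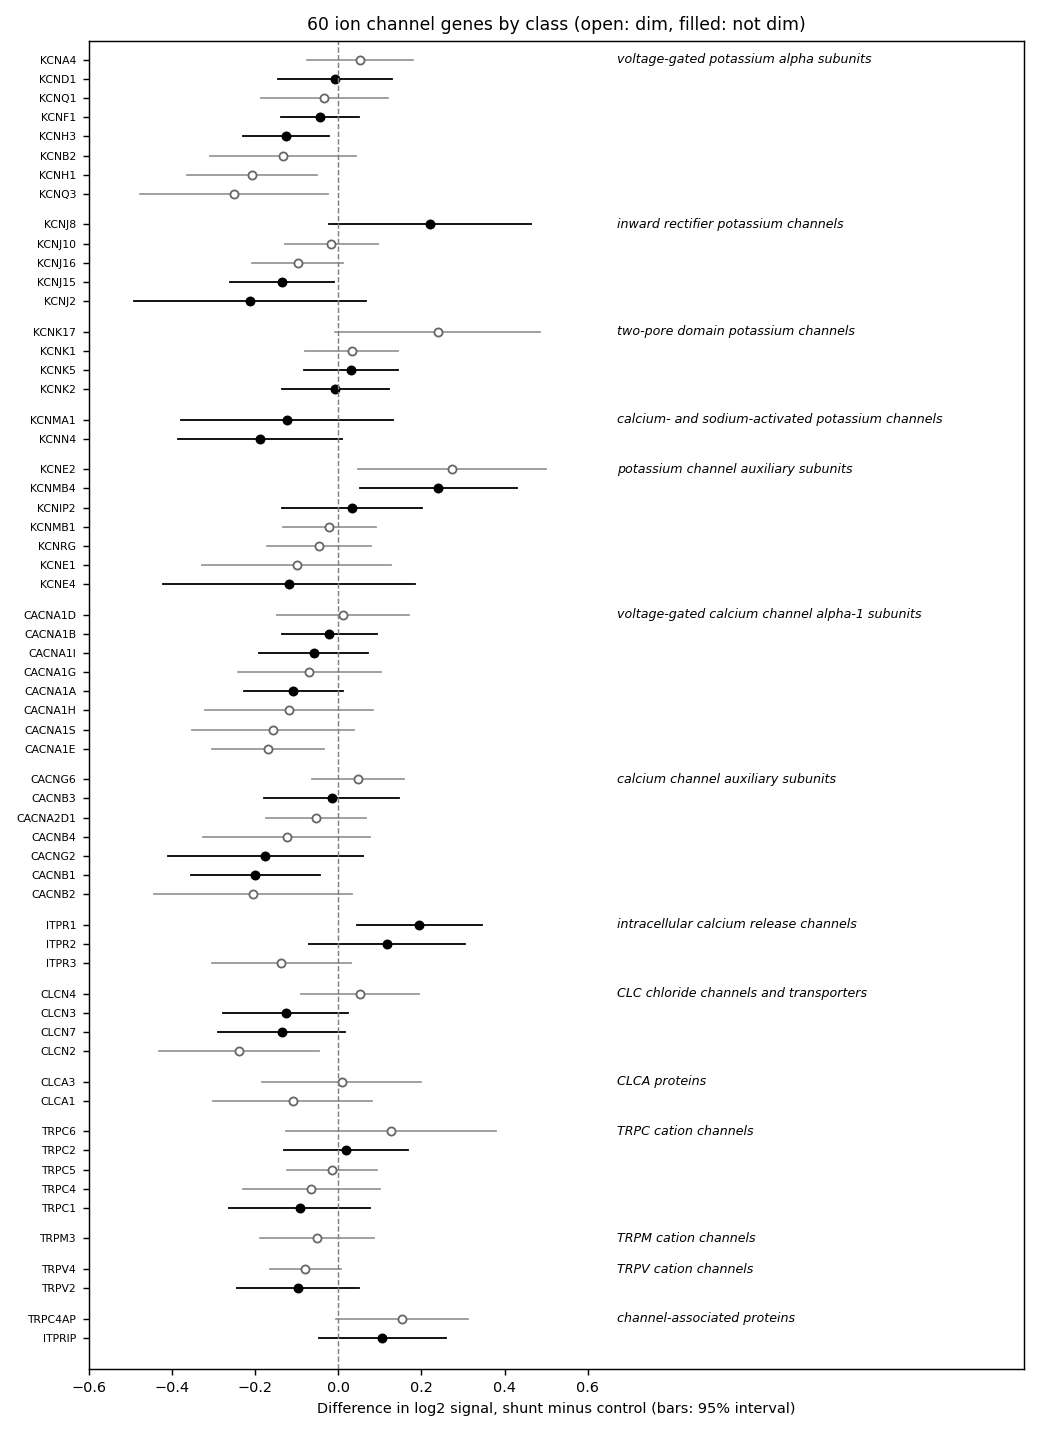
Difference in log2 signal, shunt minus control, for the 60 channel genes by class, with the 95% interval of the limma fit as bars. Open points are dim genes and filled points the others; the intervals of 50 genes include 0, and all 60 lie between -0.49 and 0.50.

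The differences were small. The 95% intervals of the 60 genes lay between -0.49, the lower bound of KCNJ2, and 0.50, the upper bound of KCNE2, or 0.711-fold to 1.41-fold. These bounds are not adjusted for the number of genes, and a p that misses the threshold does not show that a gene was the same in both groups. The median difference was -0.056 over the channel genes and -0.014 over all genes on the log2 scale. Shunt was above control for 18 of 60 channel genes (30.0%) and for 44.9% of all genes.

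Many channel genes were dim. A gene is called dim here when its mean log2 signal lay in the lowest 25% of all genes, under 6.88, and no detection call was used to say whether such a signal is above background. By this measure 33 of the 60 channel genes were dim. The median difference was -0.053 over these 33 genes and -0.043 over all 2289 dim genes, and shunt was above control for 10 of the 33 (30.3%) beside 33.5%. Over the 27 channel genes that were not dim it was -0.059, beside -0.0035 over the 6866 such genes of the array, and shunt was above control for 8 of the 27 (29.6%) beside 48.7%. At an unadjusted p under 0.05 (limma), 1 of the 33 dim channel genes was higher and 4 lower (3.03% and 12.1%). Over all dim genes the shares were 3.80% and 10.4%. Of the 27 channel genes that were not dim, 2 were higher and 3 lower (7.41% and 11.1%), beside 7.57% and 7.11%. Without control replicate 2, which is described next, the medians of the genes that were not dim were -0.022 for channel genes and -0.015 for all, with 11 of 27 positive (40.7%) beside 43.8%.

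**Figure D2:**
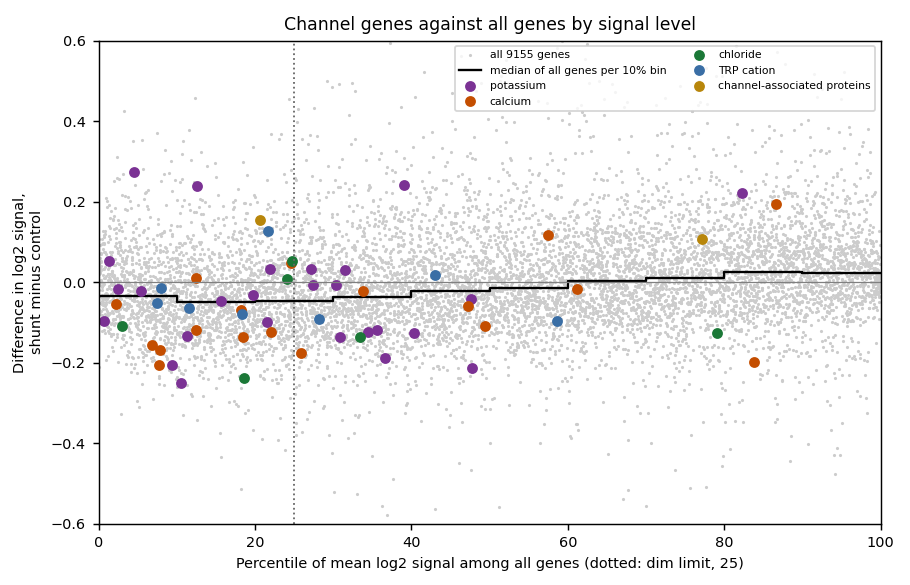
Difference in log2 signal, shunt minus control, against the percentile of mean signal among all genes. Large points are the channel genes by the ion they carry, small points all 9155 genes (31 lie beyond the axis limits), and the step line is the median of all genes in each of 10 bins of signal; 37 of the 60 channel genes fell in the 3 lowest bins, where that median ran from -0.050 to -0.036.

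The lower side of this comparison depended in part on 1 control lamb. Control replicate 2 had the lowest mean correlation with the other 15 arrays, 0.983, where the other control arrays had 0.990 to 0.993 and the shunt arrays 0.991 to 0.993. It gave the highest control value for 26 of the 60 channel genes, and for 17.1% of all genes. Without it shunt was above control for 23 of the 60 channel genes (38.3%) and 42.4% of all genes, and the median difference of the channel genes was -0.035, beside -0.019 for all genes. The sign turned for 7 channel genes, 6 of them negative with all arrays (KCND1, KCNQ1, KCNK2, KCNE1, KCNE4 and TRPC5) and 1 positive (CLCA3). Of the 10 genes with an unadjusted p under 0.05, 9 kept it without this lamb and KCNJ15 did not. Over the 16 fits with 1 array left out, 7 of the 10 kept it in all, KCNH3 and KCNQ3 in 15 and KCNJ15 in 9.

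**Figure D3:**
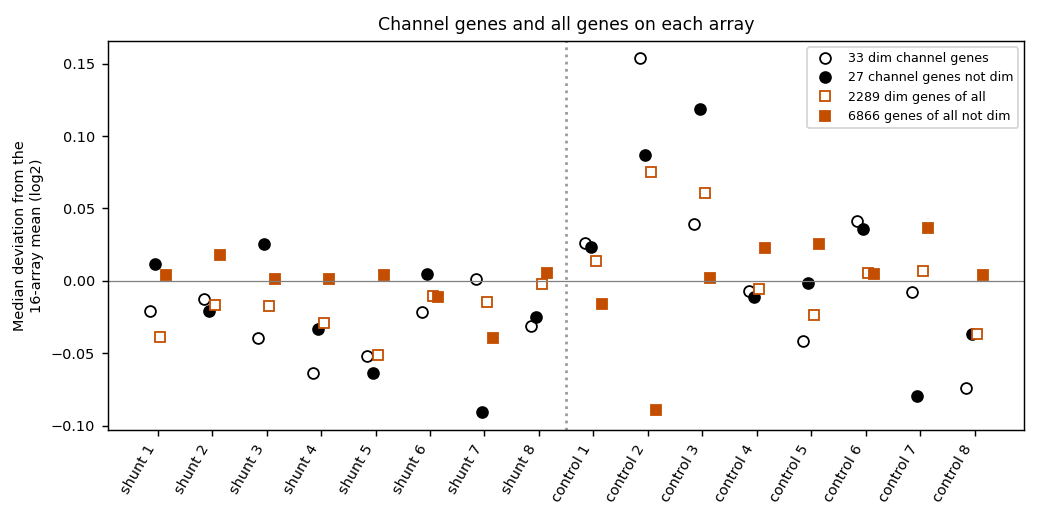
Median deviation of each array from the 16-array mean, in log2 units, for channel genes (circles) and all genes (squares), dim genes open and others filled. Shunt arrays are on the left; control replicate 2 has the dim channel genes at 0.15 and the other channel genes at 0.087, while all genes that are not dim lie at -0.089.

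Array medians also differed between the groups. The array median was 7.135 ± 0.009 in shunt and 7.158 ± 0.016 in control lambs (SD, n = 8 each). The mean over the 60 channel genes was 6.87 ± 0.01 in shunt and 6.91 ± 0.06 in control lambs. That mean was 7.03 in control replicate 2. The other control arrays ran from 6.85 to 6.94 and overlapped the shunt range of 6.84 to 6.88. With every array centred on its median, the median difference of the channel genes was -0.033 and that of all genes 0.0097. The part of these array differences in the channel values was not tested.

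The lung label was checked against markers of its cell types. Above the 50th percentile of all genes were 10 of 11 alveolar epithelial markers (median percentile 93.5), 7 of 9 endothelial markers (median 89.1) and 8 of 9 smooth muscle markers (median 77.1). The lowest of these lists were SLC34A2 at percentile 31.1, VWF at 4.84 and LMOD1 at 33.2, and percentiles of different probe sets are not amounts of RNA. Airway epithelial markers were above the 50th percentile for 3 of 7 genes (median 25.6). Those of striated and cardiac muscle were above it for 4 of 12 genes (median 20.2, highest 95.3). In whole lung, fewer cells of a type and less RNA per cell cannot be told apart.

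Among voltage-gated potassium channel alpha subunits, which form the pore that opens on depolarization, 1 of 8 genes had a positive difference and 7 a negative one (median -0.084), and 5 were dim. KCNH1, an ether-a-go-go channel, ran from 5.35 to 5.80 with a median of 5.62 in shunt lambs, and from 5.49 to 6.03 with a median of 5.87 in control lambs. All 8 shunt lambs lay below the control mean, and the groups overlapped, with control replicate 8 lower than 7 of the shunt lambs. The difference was -0.21 ± 0.075 (SE, unadjusted p = 0.0125, adjusted p = 0.245), and the gene was dim, at percentile 9.44.

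KCNH3, of the related elk subfamily, was not dim and ran from 7.52 to 7.77 with a median of 7.71 in shunt lambs, and from 7.67 to 7.90 with a median of 7.80 in control lambs. Again 8 of 8 shunt lambs were below the control mean, and the difference was -0.13 ± 0.05 (unadjusted p = 0.0210, adjusted p = 0.267). KCNQ3, a subunit of the M current, ran from 5.53 to 5.78 in shunt lambs and from 5.73 to 6.69 in control lambs. The value of 6.69 came from control replicate 2, and the other 7 control lambs reached 6.00. The KCNQ3 difference was -0.25 ± 0.11 (unadjusted p = 0.0310, adjusted p = 0.301), and -0.14 without control replicate 2 (unadjusted p = 0.0118). Of the 8 shunt lambs 5 were below every control lamb. The rest of the class holds the delayed rectifier KCNB2, the fast-inactivating KCNA4 and KCND1, the silent subunit KCNF1 and KCNQ1, the slow delayed rectifier of heart and epithelium. Their differences ran from -0.13 (KCNB2) to 0.053 (KCNA4), and KCNA4, KCNB2 and KCNQ1 were dim as well.

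**Figure D4:**
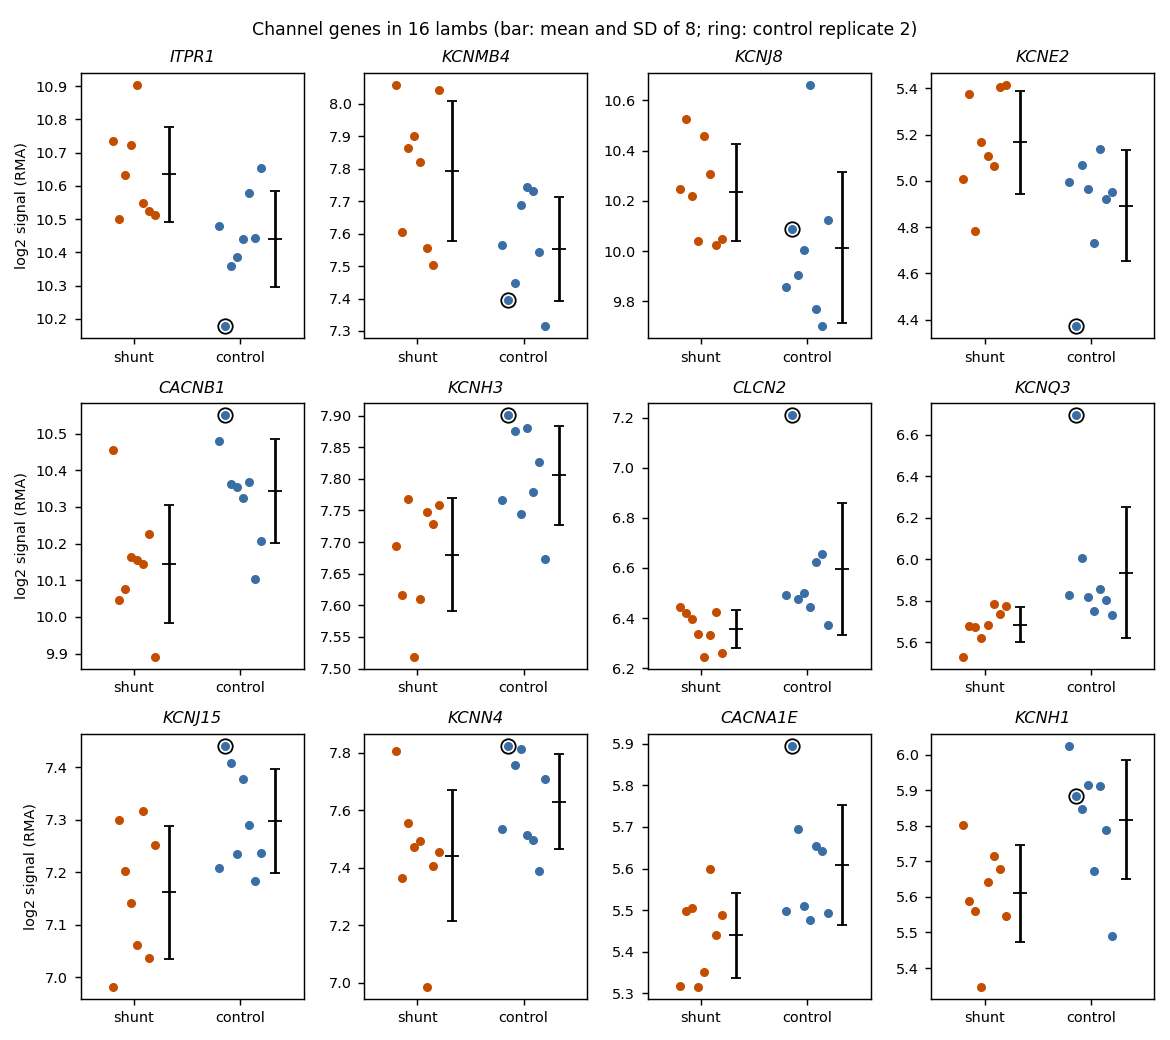
Log2 signal of 12 channel genes in each lamb, shunt on the left and control on the right of each panel, with the mean and SD of 8 as bars and a ring around control replicate 2. Axes differ between panels and do not start at 0; the groups overlap in every panel, and control replicate 2 is the highest control lamb for CACNB1, KCNH3, CLCN2, KCNQ3, KCNJ15, KCNN4 and CACNA1E and the lowest for ITPR1 and KCNE2.

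Inward rectifiers hold the resting potential of many cells. KCNJ8, the pore of the ATP-sensitive potassium channel of vessels, was the member of this class with a positive difference. Its signal ran from 10.03 to 10.53 with a median of 10.23 in shunt lambs, and from 9.70 to 10.66 with a median of 9.95 in control lambs. All 8 shunt lambs were above the control mean, but control replicate 5 had the highest value of all 16. The difference was 0.22 ± 0.12 (unadjusted p = 0.0724, adjusted p = 0.385).

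The other inward rectifiers had negative differences. KCNJ15 ran from 6.98 to 7.32 in shunt lambs and from 7.18 to 7.44 in control lambs, a difference of -0.14 ± 0.06 (unadjusted p = 0.0352, adjusted p = 0.315). KCNJ2, a strong rectifier that sets resting voltage, was at -0.21 ± 0.13 (adjusted p = 0.463), with 2 of 8 shunt lambs above the control mean. KCNJ16, which forms channels together with other rectifier subunits, was at -0.098 and KCNJ10, a channel known from glia and kidney, at -0.017, and both were dim.

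Tandem pore domain channels carry background potassium current. Here 3 of 4 had positive differences (median 0.031). KCNK17, a channel opened by alkaline medium, ran from 5.76 to 6.77 in shunt lambs and from 5.69 to 6.20 in control lambs. Shunt replicates 8 and 3, at 6.77 and 6.34, were above every control lamb, whereas the other 6 shunt lambs were within the control range. KCNK17 differed by 0.24 ± 0.12 (unadjusted p = 0.0560, adjusted p = 0.355) and was dim. KCNK1, KCNK2, a mechanosensitive channel, and KCNK5, an acid-sensitive channel, differed by 0.032, -0.0074 and 0.031.

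Both pores of calcium-activated potassium channels had negative differences. KCNN4, the intermediate-conductance channel of endothelium, blood cells and epithelium, ran from 6.99 to 7.81 with a median of 7.46 in shunt lambs, and from 7.39 to 7.82 with a median of 7.62 in control lambs. Shunt replicate 1 was the exception, at 7.81, and shunt replicate 6 was the lowest of all lambs. The difference was -0.19 ± 0.094 (unadjusted p = 0.0604, adjusted p = 0.363). With 1 array left out it ran from -0.24 to -0.12, with an unadjusted p under 0.05 in 2 of 16 fits (limma). KCNMA1, the pore of the large-conductance channel of smooth muscle, was at -0.12 ± 0.12 (adjusted p = 0.662), and ran from 7.00 to 7.74 in shunt lambs and from 6.94 to 7.69 in control lambs. The low end of the controls was control replicate 2, without which the difference was -0.20 (adjusted p = 0.442).

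Auxiliary subunits, which tune the pores, held 2 of the 3 channel genes on the higher side. KCNMB4, a beta subunit of the large-conductance channel, ran from 7.50 to 8.06 with a median of 7.84 in shunt lambs, and from 7.31 to 7.74 with a median of 7.55 in control lambs. Shunt lambs lay above the control mean in 7 of 8 cases, and 5 of them above every control lamb. The difference was 0.24 ± 0.09 (unadjusted p = 0.0154, adjusted p = 0.253), and the gene was not dim. KCNE2, a single-span subunit that joins KCNQ1 and other pores, ran from 4.78 to 5.41 in shunt lambs and from 4.37 to 5.14 in control lambs. It was among the dimmest, at percentile 4.58, with a difference of 0.27 ± 0.11 (unadjusted p = 0.0207, adjusted p = 0.266).

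The other genes placed in this class had differences from -0.12 (KCNE4) to 0.033 (KCNIP2), and KCNE4 was at 0.0096 without control replicate 2. Among them KCNRG, at -0.046 and dim, is a potassium channel regulator by name, not a subunit, and was counted here by its symbol. KCNMB1, the beta subunit of the large-conductance channel in smooth muscle, was dim at percentile 5.36 and differed by -0.022 ± 0.053. KCNE1, a partner of KCNQ1, was at -0.10 ± 0.11, and without control replicate 2, which read 7.42 where the other controls reached 6.79, it was at 0.0007.

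Pores of voltage-gated calcium channels, the alpha-1 subunits, had a positive difference for 1 of 8 genes (median -0.089), and 5 of the 8 were dim. CACNA1E, the R-type pore, ran from 5.32 to 5.60 in shunt lambs and from 5.48 to 5.90 in control lambs. All 8 shunt lambs were below the control mean, with a difference of -0.17 ± 0.064 (unadjusted p = 0.0170, adjusted p = 0.260). Next in order of p were CACNA1A, the P/Q-type pore of nerve endings, at -0.11 ± 0.057 (adjusted p = 0.385), and CACNA1S, the L-type pore of skeletal muscle, at -0.16 ± 0.093 (adjusted p = 0.438). CACNA1S was at -0.076 without control replicate 2. CACNA1D, an L-type pore, was at 0.011 and CACNA1H, a T-type pore, at -0.12, or -0.043 without control replicate 2. Among the others, the N-type pore CACNA1B and the T-type pores CACNA1G and CACNA1I, differences ran from -0.069 to -0.021.

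Auxiliary subunits of these channels carry the pore to the membrane and set its gating, and 6 of 7 had negative differences (median -0.12). CACNB1, a beta subunit known from skeletal muscle, ran from 9.89 to 10.46 with a median of 10.15 in shunt lambs, and from 10.10 to 10.55 with a median of 10.36 in control lambs. In 7 of 8 shunt lambs the value was below the control mean, the exception being shunt replicate 1. The difference was -0.20 ± 0.074 (unadjusted p = 0.0153, adjusted p = 0.253), at percentile 83.8 of all genes.

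CACNB2, CACNG2 and CACNB4 rested more on 1 lamb. CACNB2, a beta subunit of heart and smooth muscle, was at -0.21 ± 0.11 (adjusted p = 0.404) and at -0.098 without control replicate 2. CACNG2, a regulator of glutamate receptors in brain, was at -0.18 ± 0.11 (adjusted p = 0.470) and at -0.066 without that lamb. CACNB4, another beta subunit, was at -0.12 and at -0.036 without it. The median of the 7 genes was then -0.036. CACNB3 was at -0.016, CACNA2D1 at -0.053 and CACNG6 at 0.047.

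Inositol trisphosphate receptors release calcium from the endoplasmic reticulum. ITPR1 ran from 10.50 to 10.90 with a median of 10.59 in shunt lambs, and from 10.18 to 10.65 with a median of 10.44 in control lambs. All 8 shunt lambs were above the control mean, and 3 were above every control lamb. The difference was 0.20 ± 0.071 (unadjusted p = 0.0132, adjusted p = 0.245), at percentile 86.7 of all genes. ITPR2 was at 0.12 ± 0.089 (adjusted p = 0.560), or 0.052 without control replicate 2, and ITPR3, which was dim, at -0.14 ± 0.079 (adjusted p = 0.426).

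The ITPR1 direction held for 1 of its 5 probe sets. The probe set with the next highest mean ran from 9.82 to 10.29 in shunt lambs and from 9.89 to 10.44 in control lambs, with a difference of -0.10. The other 3 were at -0.011, -0.14 and -0.17. With the mean of its probe sets ITPR1 differed by -0.047, and with the most variable of them by -0.14.

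Probe sets of other channel genes were compared in the same way. Of the 25 channel genes with several probe sets, the sets differed in sign for 8 (CACNA1A, CLCA3, ITPR1, ITPR2, ITPRIP, KCNK1, KCNMA1 and TRPC2). For KCNMB4 the second set was at 0.077, for CACNB1 the others were at -0.014 and -0.17, for KCNJ15 at -0.072 and for CACNA1E at -0.18. Dimmer sets of KCNMA1 (-0.25, unadjusted p = 0.00489) and CACNA1G (-0.20, unadjusted p = 0.00441) had smaller p than those that represent these genes. Over all 108 probe sets of channel genes 0 passed (limma, lowest adjusted p = 0.219), where 0.0708% of all 24016 probe sets did. At an unadjusted p below 0.05, 4 had a positive and 14 a negative difference (3.70% and 13.0%), beside 6.42% and 7.32% of all probe sets. These shares are not split by signal, and many of the sets were dim. For 21 of the 60 genes the name of the chosen probe set carries the letter A in place of S, the manufacturer's mark for the orientation of its design sequence, and which strand was measured was not tested.

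**Figure D5:**
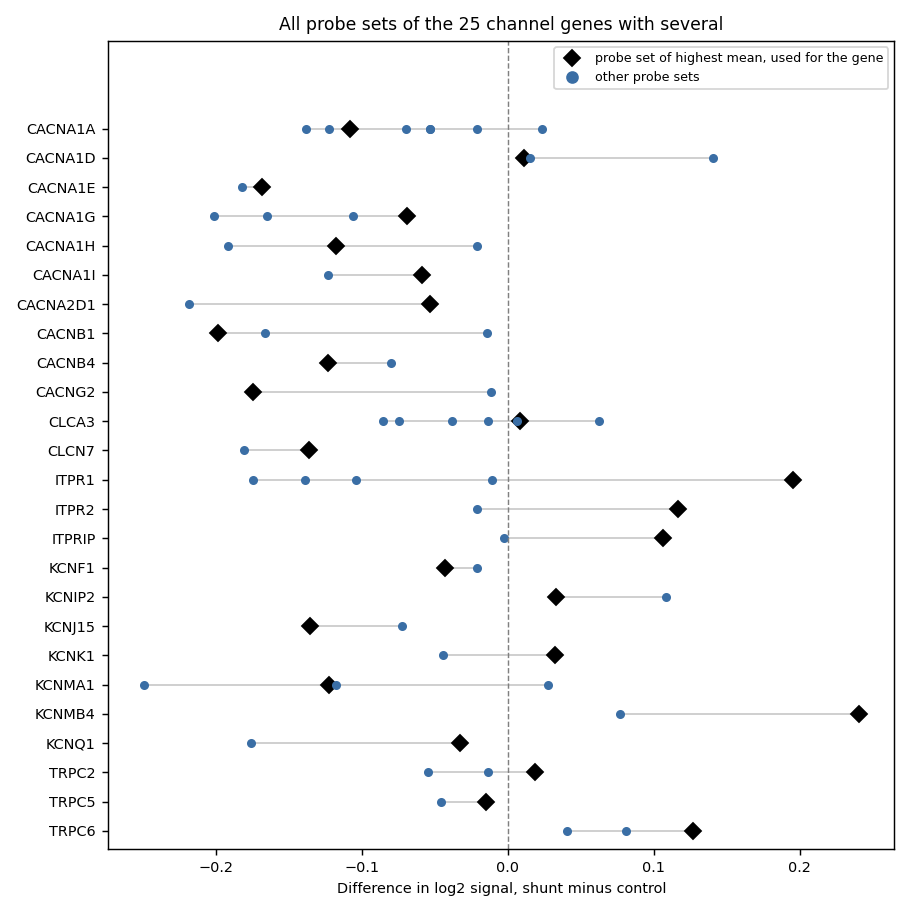
Difference in log2 signal, shunt minus control, of all 73 probe sets of the 25 channel genes with several. Diamonds are the sets of highest mean, which represent the genes, and circles the others; ITPR1 has its diamond at 0.20 and all 4 circles below 0.

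CLC proteins are chloride channels of the cell surface and chloride-proton exchangers of endosomes and lysosomes, and 3 of 4 had negative differences (median -0.13). CLCN2, a surface channel opened by hyperpolarization, ran from 6.25 to 6.44 with a median of 6.37 in shunt lambs, and from 6.37 to 7.21 with a median of 6.50 in control lambs. All 8 shunt lambs were below the control mean, and control replicate 2 was far above the others at 7.21. The difference was -0.24 ± 0.091 (unadjusted p = 0.0174, adjusted p = 0.261), and -0.15 without that lamb (unadjusted p = 0.00833), in a dim gene.

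The exchangers CLCN3, of endosomes, and CLCN7, of lysosomes, were at -0.13 ± 0.071 (adjusted p = 0.417) and -0.14 ± 0.073 (adjusted p = 0.392). In each, 1 of 8 shunt lambs was above the control mean. With 1 array left out, an unadjusted p under 0.05 came in 2 of 16 fits for CLCN3 and 1 of 16 for CLCN7 (limma). CLCN4, another endosomal exchanger, was at 0.052. CLCA1, a secreted protein of mucus cells, and CLCA3, both dim, were at -0.11 and 0.0080.

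TRP channels admit sodium and calcium. Of 8 genes, 2 had positive and 6 negative differences (median -0.058), 5 were dim, and 0 had an unadjusted p under 0.05. TRPV4, opened by osmotic swelling, heat and shear, ran from 6.36 to 6.51 in shunt lambs and from 6.44 to 6.59 in control lambs. Apart from shunt replicate 1, at 6.51, the shunt lambs were below every control lamb, by small amounts. The difference was -0.079 ± 0.041 (unadjusted p = 0.0686, adjusted p = 0.376), in a dim gene. TRPV2 was at -0.097 ± 0.070 (adjusted p = 0.528).

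TRPC6, opened by diacylglycerol and known in pulmonary artery smooth muscle, ran from 6.44 to 7.15 in shunt lambs and from 6.26 to 7.01 in control lambs. Its difference of 0.13 ± 0.12 (adjusted p = 0.642) was smaller than the spread between lambs (SD 0.24 in shunt and 0.29 in control). TRPC1 was at -0.093 ± 0.080 (adjusted p = 0.608), TRPC4 at -0.064, TRPC5 at -0.015, TRPC2 at 0.019 and TRPM3 at -0.051. Both channel-associated proteins had positive differences, with TRPC4AP, a partner of TRPC4, at 0.15 ± 0.076 (adjusted p = 0.359) and ITPRIP, a partner of inositol trisphosphate receptors, at 0.11 ± 0.072 (adjusted p = 0.499).

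Spread between lambs was smaller in shunt than in control for 42 of the 60 channel genes (70.0%), and for 67.3% of all genes. KCNE4 had an SD of 0.18 in shunt and 0.42 in control lambs (0.22 without control replicate 2), and KCNK17 one of 0.32 in shunt and 0.17 in control lambs. Control replicate 2 had the highest of all 16 values for 25 channel genes.

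Channel and calcium transport genes outside the 60 gave no call either. Of 55 measured genes in 5 lists 0 passed (limma), with 9 positive and 4 negative differences at an unadjusted p below 0.05 (16.4% and 7.27%, beside 6.63% and 7.92% of all genes). Among sodium channels (4 measured) the epithelial subunits SCNN1B and SCNN1A were at -0.22 ± 0.11 and -0.20 ± 0.10. Of 10 other chloride and anion channel genes, 3 were on the higher and 2 on the lower side at that p, with CLIC4 at 0.32 ± 0.087 (adjusted p = 0.167) and CLIC5 at -0.34 ± 0.13 (adjusted p = 0.264).

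Store-operated entry and calcium handling had 4 of 20 genes on the higher side at that p and 0 on the lower side. The calcium pumps ATP2A2, of the endoplasmic reticulum, and ATP2B1, of the cell surface, were at 0.25 ± 0.081 (adjusted p = 0.207) and 0.22 ± 0.073 (adjusted p = 0.219). Of 16 mechanosensitive, cyclic nucleotide-gated and other cation channels 1 was on the higher and 2 were on the lower side, with the dim olfactory channel gene CNGA2 at -0.23 ± 0.079 and the polycystin gene PKD2 at 0.20 ± 0.081. Regulators of vascular potassium channels (5 measured, 1 on the higher side) held the cyclic GMP-dependent kinase gene PRKG1, at 0.20 ± 0.097, and ABCC8, a sulfonylurea receptor, at -0.17 ± 0.14.

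Cell type markers were set beside these values, and 0 of each list passed the threshold. Counts at an unadjusted p below 0.05 stand here beside the same shares of all genes, 6.63% higher and 7.92% lower. Smooth muscle markers had a positive difference for 7 of 9 genes (4 at that p), and their mean log2 signal ran from 10.28 to 10.58 in shunt and from 10.05 to 10.53 in control lambs. Endothelial markers had one for 7 of 9 genes (4 at that p) and ran from 9.81 to 10.06 in shunt and from 9.68 to 9.92 in control lambs. Alveolar epithelial markers had a positive difference for 0 of 11 genes (5 negative at that p) and ran from 10.75 to 11.07 in shunt and from 10.82 to 11.15 in control lambs, and those of airway epithelium for 2 of 7 (3 negative at that p), from 7.21 to 7.69 in shunt and from 7.31 to 7.86 in control lambs. Their part in the values of KCNJ8, ITPR1, KCNMB4, KCNN4 or any other channel gene was not tested.

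Blood cell and nerve markers were given the same way. Neutrophil markers had a positive difference for 0 of 7 genes (3 negative at that p) and ran from 6.51 to 6.85 in shunt and from 6.42 to 7.16 in control lambs. Markers of nerve and glia, where many voltage-gated channels are known, had one for 1 of 7 genes (1 at that p) and ran from 7.21 to 7.56 in shunt and from 7.20 to 7.58 in control lambs. Those of striated and cardiac muscle had one for 5 of 12 genes (1 positive and 3 negative at that p) and ran from 7.32 to 7.41 in shunt and from 7.31 to 7.51 in control lambs. For macrophages it was 3 of 7 genes (1 at that p), T cells 4 of 9 (1 negative at that p), B cells 1 of 3 (2 negative at that p), mast cells 1 of 2, platelets 1 of 2 and neuroendocrine cells 3 of 4.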

How the data were processed

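Each array was taken as 1 lamb. The values are log2 signals of probe sets as the authors deposited them. The submitters' processing notes name RMA, which subtracts background, normalizes by quantiles and summarizes probes, and a version of it was not found in the labels. No detection call was used, and the number of arrays, 8 per group, limits the precision. Of 24128 probe sets, 112 manufacturer controls were left out, and 13292 of the remaining 24016 had 1 gene symbol in the platform annotation, 86 several and 10638 none. Each of 9155 genes was represented by its probe set of highest mean over all 16 arrays. Of the 60 channel symbols, 56 were found in a table of sheep genes. No sequences or genome positions were used.

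Shunt and control were compared in R 4.3.3 by limma 3.58.1 (lmFit and eBayes, no covariate, two-sided, Benjamini-Hochberg over 9155 genes, threshold 0.05). Differences are shunt minus control, and ± gives the fit's standard error. The labels describe no lamb individually, and if an animal was on several arrays, p-values would cover spread between arrays alone. The members, classes and lists were chosen with earlier results of these data known. Named genes were those called, the 3 of smallest p per class, the 8 of highest mean, 14 of 22 preset genes that were measured, and those with separate groups, 41 in all, and for related lists the 2 of smallest p; other members are given by value or range. On simulated data for shunt against control with 9155 genes, shifts on the log2 scale of 0.3 were recovered in 37 of 67 genes, of 0.6 in 62 of 67 and of 1 in 66 of 66. Another 6 genes without a shift were called. Noise was drawn independently for each gene and array, with no outlying array, so these rates are not the power of the real arrays. Figures used matplotlib 3.10.9 (Python 3.11.15).

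Replicate numbers were checked as pairs. Correlations of deviations between same-numbered lambs ran from -0.26 to 0.22, over 0.1 in 2 of 8, so the numbers were not taken as pairs. Alternatives were a replicate block, filters on dim genes, repeated quantile normalization, median centring, cyclic loess, array weights, a trended robust prior, XIST as a covariate, other choices of probe set, a threshold of 0.10 and each array left out.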

Additional observations from a re-analysis of the deposited data

Results flagged for a closer look

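Each set of 8 values was tested for a lamb set apart, by dividing its distance from the nearest other lamb by the whole range. Such a lamb was found for 16 of 120 sets of values (60 channel genes in both groups), where independent normal values give about 1 in 20, or 6 of 120. The 120 sets come from the same 16 arrays and are not independent, and the share over all genes is not given here. Of the 16, 7 were control replicate 2 and 3 shunt replicate 7. The named genes, chosen in part by smallest p, held 14 of the 16.

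Control replicate 2 was the highest control for KCNQ3 (6.69, next 6.00), KCNE1 (7.42, next 6.79), CACNB2 (6.37, next 5.73), CACNG2 (7.79, next 7.14) and CLCN2 (7.21, next 6.66), and also for KCNE4 (8.44, next 7.74) and CACNB4 (7.37, next 6.86). Shunt replicate 7 was the lowest shunt lamb for ITPR3 (6.12, next 6.40) and the highest for CLCA3 (7.25, next 6.91) and TRPC4AP (7.06, next 6.75). Shunt replicate 1 was the highest shunt lamb for CLCN3 (10.07, next 9.83) and TRPV4 (6.51, next 6.43), and shunt replicate 6 the lowest for KCNE1 (6.44, next 6.62). Among controls, replicate 5 was the highest for KCNJ8 (10.66, next 10.13), replicate 4 for CLCN7 (7.68, next 7.47) and replicate 1 for TRPC1 (7.46, next 7.13).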

How the results depend on the processing

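No channel gene was called under any of the 28 alternatives run (12 settings and 16 fits with 1 array left out), and the lowest adjusted p of a named channel gene was 0.107 (CACNB1, without shunt replicate 1). With the replicate block 0 channel genes and 0 of all genes passed. All genes called, 6 higher and 2 lower, were 14 and 9 with array weights, 10 and 6 with XIST as a covariate, and 15 and 11 at a threshold of 0.10. Lower calls were 1 after quantile normalization again or cyclic loess and 0 after median centring or with the most variable probe set. With 1 array left out, all genes called ran from 2 to 30 higher and from 0 to 34 lower, both highest without shunt replicate 1.

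Channel genes higher at an unadjusted p under 0.05, 3 as reported, were 6 with the replicate block, 5 after quantile normalization again, median centring or cyclic loess, 1 without genes below the 50th percentile of signal, and 3 to 5 with 1 array left out. Those lower, 7 as reported, were 3 without genes below the 25th percentile and 1 without those below the 50th. Without the lower 50% of genes the median difference was 0.045 over the channel genes left and 0.22 for inward rectifiers (KCNJ8 alone). The genes left were KCNJ8, ITPR1, ITPR2 and ITPRIP, with positive differences, and CACNB1, CACNB3, CLCN3 and TRPV2, with negative ones. For all genes the median was 0.0105 in that setting and 0.0097 after median centring. The median of calcium release channels, 0.12, was -0.047 with the mean of probe sets and -0.14 with the most variable one. That of calcium channel auxiliary subunits ran from -0.16 to -0.036 with 1 array left out.

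Signs changed in 7 of the 41 named genes. ITPR1 was at -0.047 with the mean of probe sets and -0.14 with the most variable one, and KCNK1 at -0.0060 and -0.044. CLCA3 was at -0.023 with array weights and -0.019 with the mean of probe sets. KCNMB1 was at 0.0014 after median centring and 0.0050 with array weights, and CACNB3 at 0.0072 after median centring. With 1 array left out CACNA1D ran from -0.028 to 0.064, CACNB3 from -0.059 to 0.021, CLCA3 from -0.052 to 0.050, KCNE1 from -0.16 to 0.00070 and KCNMB1 from -0.044 to 0.0016. Among channel genes outside the 41, KCND1, KCNQ1, KCNK2, KCNE4 and TRPC5 changed sign without control replicate 2, KCNE4 to 0.0096 and the others to between 0.011 and 0.029. With another array left out, KCNJ10 reached 0.00045 and TRPC2 reached -0.014. Signs of the genes outside the 41 under the other settings are not given here. With other choices of probe set, ITPR1, KCNK1 and CLCA3 took in sets with negative differences. Median centring moves the differences of all genes by the same amount, which turned the sign of KCNMB1 and CACNB3. The cause of the other sign changes was not tested. A filter on dim genes leaves the difference of each remaining gene as it was, so no sign could change under it.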
